A study of Arabidopsis thaliana with 36 samples.

Results

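The 10 genes described here act in the stomatal lineage or in guard cells, the pair of cells that border each stomatal pore of the plant epidermis. They were taken by name from a count table of 33602 Arabidopsis thaliana genes, and all 10 had enough reads in cotyledon to be tested. EPF1, EPF2 and SPCH had too few reads in hypocotyl to pass the filter on low counts there. SPCH (AT5G53210), FAMA (AT3G24140) and ICE1 (AT3G26744) encode transcription factors of the lineage. TMM (AT1G80080) encodes a receptor-like protein, and EPF1 (AT2G20875), EPF2 (AT1G34245) and EPFL9 (AT4G12970) encode secreted peptides. KAT1 (AT5G46240) and KAT2 (AT4G18290) encode potassium channels, and MYB60 (AT1G08810) encodes a transcription factor known from guard cells. Their names were chosen by role, with earlier results of these libraries known.

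All material came from wild-type seedlings of the Col-0 accession, labelled as 5 days old and grown in long days on horizontal plates. Some seedlings stayed in light labelled white light, rich in red relative to far-red (high R/FR). Others were moved to light labelled supplemental far-red light, poor in red relative to far-red (low R/FR), the signal that neighbouring plants cast. Both lights were sampled after 15, 45, 90 and 180 min, and high R/FR also at 0 min. Cotyledons and hypocotyls of 50 acetone-fixed seedlings per sample were dissected by hand, which gave 18 groups of 2 libraries and 36 libraries in all. Each library is therefore a bulk sample of a whole organ, in which guard cells and their precursors are a small share of the cells, and fewer cells of a type and less RNA per cell cannot be told apart. The labels describe a plate for each sample and name no separate cultures or days, so the p-values measure the spread between these samples, which may be technical.

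As background, stomata form when young epidermal cells enter a lineage started by SPCH, pass through MUTE and are completed by FAMA, each paired with ICE1 or its close relative SCRM2. Secreted peptides act through TMM and the ERECTA family of receptor kinases and a MAP kinase cascade to set how many cells enter. EPF1 and EPF2 limit entry and division, and EPFL9, which is made in the mesophyll, promotes it. In mature guard cells, potassium uptake through inward channels such as KAT1 and KAT2 swells the cells and opens the pore. MYB60 is known to promote opening in light. Low R/FR inactivates phytochrome B and so frees the PIF transcription factors, which bind the G-box and related DNA motifs.

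Gene counts ran from 24897594 to 45115165 per cotyledon library and from 23560273 to 34231167 per hypocotyl library. The light labels were checked with PIL1, a PIF target that marks the shade response, whose level in low R/FR was higher by 8.28, 8.66 and 8.07 on the log2 scale in cotyledon at 45, 90 and 180 min. In hypocotyl it was higher by 3.09, 5.37, 3.99 and 3.28 at 15, 45, 90 and 180 min, and all of these passed the test. In cotyledon at 15 min its log2 ratio of 3.22 ± 0.71 did not pass (adjusted p = 0.0557). The organ labels were checked with 4 mesophyll markers, which summed to 51897 to 67572 CPM (read counts scaled by library size) in cotyledon and to 12108 to 20162 CPM in hypocotyl. Of 5 shoot apex markers, the sum stayed at or below 0.145 CPM in cotyledon and ran from 0.818 to 1.98 CPM in hypocotyl, and 4 root epidermis markers summed to at most 1.34 CPM in any library. The myrosinase gene TGG2 was near 0 in every hypocotyl library except replicate 1 of low R/FR at 180 min, which held 7.12 CPM. That library and the other of its group, replicate 3, held FAMA at 1.55 and 1.52 CPM and KAT1 at 2.48 and 2.42 CPM. Several stomatal lineage genes were higher in replicate 1 than in replicate 3, with SPCH at 0.197 against 0.0596 CPM and TMM at 0.647 against 0.388 CPM. The receptor kinase gene ERL1 was at 0.788 against 0.0596 CPM and the polarity gene POLAR at 0.281 CPM against 0. KAT2 (0.394 against 0.477 CPM) and EPF1 (0.113 against 0.119 CPM) were not higher. The shoot apex markers CUC1, CLV3 and CUC2 were at 0.197, 0.0844 and 0.0563 CPM in replicate 1 and at 0 in replicate 3. Whether replicate 1 held more tissue of the shoot apex was not tested. Without replicate 1 the log2 ratios of KAT1, MYB60 and ICE1 in hypocotyl at 180 min kept their directions.

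Most of these genes were read mainly in cotyledon. Levels were compared between genes per kb of exon. In cotyledon the median over 18 libraries was 33.6 CPM per kb for EPFL9, 23.8 for ICE1, 20.2 for KAT1, 14.9 for MYB60, 8.57 for TMM and 8.18 for FAMA. KAT2 followed at 3.4 CPM per kb, SPCH at 2.08, and EPF1 and EPF2 at 1.85 each. In hypocotyl the order was led by ICE1 at 15.3 CPM per kb and MYB60 at 14.1, with EPFL9 at 2.58. The other 7 genes had medians of 0.0335 (EPF2) to 0.431 (FAMA) CPM per kb there. Total counts over the 18 hypocotyl libraries were 16 for EPF2, 80 for EPF1, 101 for SPCH, 209 for KAT2, 368 for TMM, 620 for KAT1 and 688 for FAMA. Light responses of these 7 genes in hypocotyl thus rest on few reads.

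**Figure D1:**
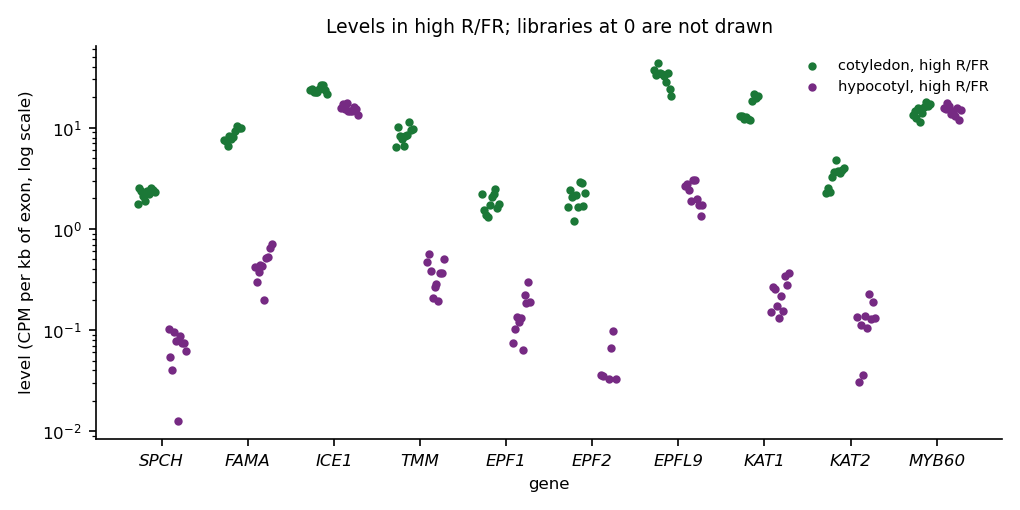
Level of each of the 10 genes in the high R/FR libraries, in CPM per kb of exon on a log axis, with each point 1 library and the organs in separate colours (10 libraries each). Cotyledon points lie above hypocotyl points for each gene except MYB60, whose organs overlap, and 4 hypocotyl libraries of EPF2 at 0 are not drawn.

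In high R/FR, 9 of the 10 genes were lower in hypocotyl than in cotyledon (time and organ as terms, 20 libraries), where 39.4% of all genes tested were lower and 80.2% differed in either direction. The difference was largest for KAT1 (log2 −6.06 ± 0.10, SE), EPF2 (−5.87 ± 0.27) and SPCH (−5.05 ± 0.16). For KAT2, TMM, FAMA, EPFL9 and EPF1 it was −4.79, −4.60, −4.26, −3.86 and −3.58, and for ICE1 −0.65 ± 0.04. EPF1, EPF2 and SPCH passed the filter on low counts only through cotyledon. The filter thus set the direction of their organ difference, which is not a separate result. MYB60 did not pass, with a median of 19.8 CPM in cotyledon and 19.9 CPM in hypocotyl and a log2 difference of −0.02 ± 0.07 (adjusted p = 0.843). The count of 9 genes and the median over the 10 genes include EPF1, EPF2 and SPCH. That median difference was −4.43, against 0.01 over all genes tested. In low R/FR, with all times fitted together, all 10 genes were lower in hypocotyl (29.3% of all genes tested were lower and 64.8% differed). The filter again set the direction of EPF1, EPF2 and SPCH. MYB60 was now lower by 0.96 ± 0.28 on the log2 scale (adjusted p = 0.00702). With the replicate number as a block this MYB60 call was lost (−0.82, adjusted p = 0.0702) and the other 9 genes remained. The MYB60 value also averages over times that differed in direction. At 15 min in low R/FR its mean was higher in hypocotyl (21.27 CPM) than in cotyledon (17.95 CPM), and the libraries did not overlap. At 45, 90 and 180 min its means were 14.86, 5.13 and 5.64 CPM in hypocotyl against 19.17, 18.97 and 20.76 CPM in cotyledon.

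Among other genes of the pathway, those with a role in guard cells were mostly lower in hypocotyl as well. Of 10 listed guard cell genes, 7 were lower in high R/FR and 1 was higher, with a list median of −2.67. Of all genes tested, 39.4% were lower and 80.2% differed in either direction. AT1G22690, a listed guard cell gene, differed by −4.69 ± 0.11. The gene that was higher was MYB61, which had 3 counts in total over the 18 cotyledon libraries. It passed the filter on low counts only through hypocotyl, which set its direction. Of the lineage transcription factors not among the 10, MUTE, SCRM2 and FLP were lower in hypocotyl and MYB88, a close relative of FLP, was higher, with SCRM2 at −2.52 ± 0.06 and FLP at −1.73 ± 0.07. The polarity protein gene POLAR (−4.94 ± 0.19) and the protease gene SDD1 (−5.37 ± 0.21) also showed large differences. In hypocotyl in high R/FR, POLAR had 4 to 10 counts and MUTE 1 to 11 counts per group of 2 libraries. Both passed the filter on low counts only through cotyledon, which set the direction of their difference. Other genes of the polarity, peptide and receptor lists went in either direction. In high R/FR at 0 min the means in cotyledon and hypocotyl were 3.78 and 8.60 CPM for BRXL2 and 1.01 and 2.99 CPM for EPFL5. For BASL they were 1.23 and 0.653 CPM. Of the receptor kinase genes, ER stood at 47.5 and 91.8 CPM, ERL1 at 2.80 and 0.188 CPM and ERL2 at 18.3 and 5.84 CPM.

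KAT1 had the strongest response of the 10 genes to low R/FR in cotyledon. It lies on chromosome 5 at chr5:18743566-18746730, minus strand, in the TAIR10 positions of the authors' deposited tables. In high R/FR its 2 libraries held 39.2 and 39.4 CPM at 0 min, 37.2 and 38.8 at 15 min, 36.5 and 36.1 at 45 min, 55.1 and 65.5 at 90 min, and 59.4 and 62.8 at 180 min. In low R/FR they held 65.9 and 50.3 CPM at 15 min, 282 and 261 at 45 min, 254 and 273 at 90 min, and 132 and 131 at 180 min. At each time both low R/FR libraries were above both high R/FR libraries. By mean level the groups ran from low R/FR at 45 min (271.7 ± 15.0 CPM, SD, n = 2) and 90 min (263.4 ± 13.3), whose libraries overlapped, to low R/FR at 180 min (131.2 ± 0.74). High R/FR at 180 and 90 min and low R/FR at 15 min followed with overlapping libraries at means of 61.1, 60.3 and 58.1 CPM, and high R/FR at 0, 15 and 45 min came last.

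The ratio of low to high R/FR for KAT1 in cotyledon was 1.53-fold at 15 min (log2 0.61 ± 0.12, SE; adjusted p = 0.0185), 7.48-fold at 45 min (2.90 ± 0.13; adjusted p = 1.07e-15), 4.36-fold at 90 min (2.12 ± 0.12; adjusted p = 1.71e-13) and 2.15-fold at 180 min (1.10 ± 0.12; adjusted p = 5.95e-08). The response fell from 45 to 90 min by 0.78 ± 0.17 on the log2 scale (adjusted p = 0.00829) and from 90 to 180 min by 1.02 ± 0.17 (adjusted p = 0.000203). The first of these steps went with a higher level in high R/FR, since the low R/FR libraries of 45 and 90 min overlapped. The second went with a lower level in low R/FR. The call at 15 min was lost without either high R/FR library (adjusted p = 0.407 and 0.217) or without low R/FR replicate 1 (log2 0.41, adjusted p = 0.949), and the fall from 45 to 90 min was lost without high R/FR replicate 2 (adjusted p = 0.0916) or low R/FR replicate 1 of 90 min (adjusted p = 0.0569).

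KAT2 moved the other way, later and by less. It lies at chr4:10115418-10118599 on the plus strand. In high R/FR in cotyledon its libraries held 6.48 and 7.40 CPM at 0 min, 6.69 and 9.45 at 15 min, 10.7 and 13.9 at 45 min, 10.9 and 10.3 at 90 min, and 11.1 and 11.6 at 180 min. Its low R/FR libraries held 10.2 and 6.64 CPM at 15 min, 11.9 and 12.6 at 45 min, 6.66 and 6.53 at 90 min, and 6.33 and 6.33 at 180 min. The lights overlapped at 15 and 45 min and were apart at 90 and 180 min. KAT2 fell in low R/FR by 0.68 ± 0.22 on the log2 scale at 90 min (1.61-fold lower, adjusted p = 0.0370) and by 0.84 ± 0.22 at 180 min (1.79-fold lower, adjusted p = 0.00583). The call at 90 min was lost without any 1 of its 4 libraries (adjusted p from 0.118 to 0.200), and the call at 180 min was kept in each alternative run. At 180 min, 3 of 4 epidermis markers also fell in cotyledon, ATML1 by 0.64, PDF2 by 0.41 and FDH by 0.28 on the log2 scale, while PDF1 was at 0.33 and did not pass. The part of epidermal tissue in the KAT2 result was not tested.

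**Figure D2:**
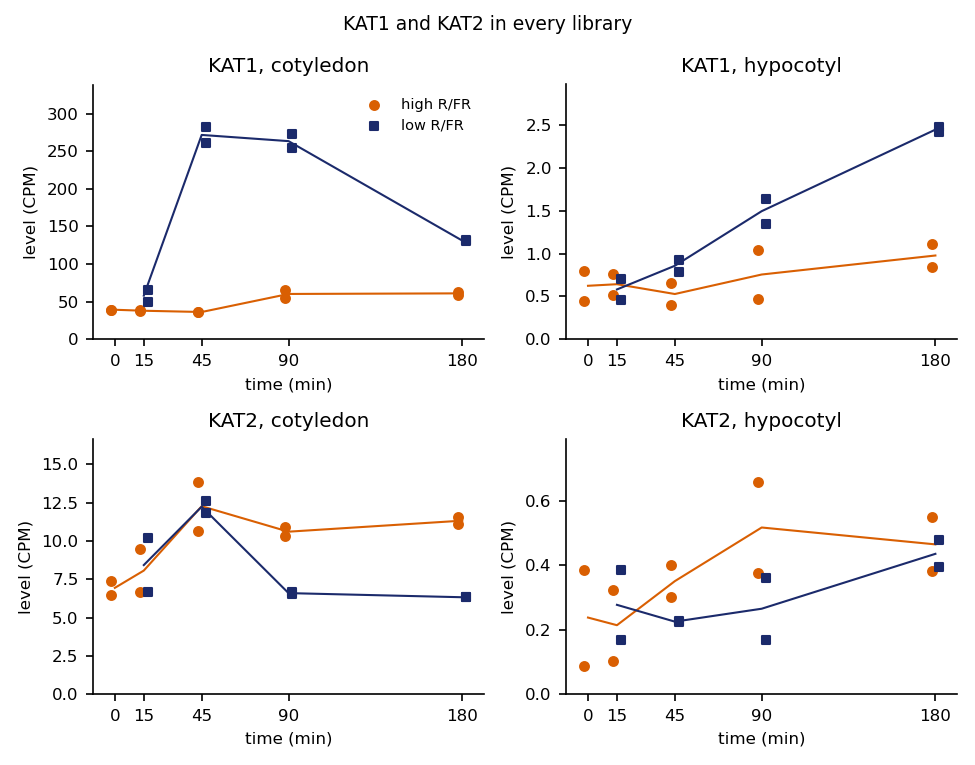
KAT1 and KAT2 in every library, in CPM on linear axes from 0, by time in min, with high and low R/FR in separate symbols, lines through the group means and a panel for each gene and organ. KAT1 in cotyledon reached 282 CPM in low R/FR at 45 min and was above high R/FR at every time, whereas KAT2 in cotyledon was at 6.33 to 6.66 CPM in low R/FR at 90 and 180 min, below high R/FR.

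The sequence before each of these channel genes is shown because they moved in opposite directions and because they were the only 2 of the 10 genes with a G-box there. The windows are the 250 bases before the gene start in the RefSeq annotation of the TAIR10.1 assembly, chr5:18747407-18747656 on the minus strand for KAT1 and chr4:10114544-10114793 on the plus strand for KAT2. Each is written 5′ to 3′ on the strand of the gene, with the G-box CACGTG and the Dof core TAAAG in capitals.

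KAT1: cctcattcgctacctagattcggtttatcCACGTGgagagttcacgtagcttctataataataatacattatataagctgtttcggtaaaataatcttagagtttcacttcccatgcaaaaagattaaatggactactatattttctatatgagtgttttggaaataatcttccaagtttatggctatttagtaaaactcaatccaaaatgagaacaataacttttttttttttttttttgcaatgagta

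KAT2: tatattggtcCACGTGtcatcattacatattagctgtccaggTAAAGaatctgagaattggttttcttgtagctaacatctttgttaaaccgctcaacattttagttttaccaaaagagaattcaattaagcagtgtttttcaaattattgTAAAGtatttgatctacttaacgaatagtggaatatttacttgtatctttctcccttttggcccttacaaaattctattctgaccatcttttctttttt

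The G-box began 221 bases before the start of KAT1 and 240 bases before that of KAT2. Of 27443 windows of the same length before protein-coding genes, 6.49% held a G-box. TAAAG, the core bound by Dof factors, was searched on both strands like the other motifs, and it stood 208 and 99 bases before the start of KAT2 and in 58.8% of all windows. It was not among the letters of the KAT1 window. The related motif CATGTG (11.1% of all windows) stood in the windows of FAMA, EPF1 and EPF2, and the auxin motif TGTCTC (10.9%) in that of EPFL9, 31 bases before the start on the opposite strand. The MYB60 window held none of these 4 motifs. The RefSeq starts lie 676 bases upstream of the authors' start for KAT1 and 624 for KAT2, so windows set on the authors' starts would cover other bases.

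In hypocotyl KAT1 rose too, from a level far below that of cotyledon. Its high R/FR libraries held 0.451 and 0.798 CPM at 0 min, 0.765 and 0.521 at 15 min, 0.401 and 0.657 at 45 min, 0.467 and 1.05 at 90 min, and 0.839 and 1.12 at 180 min. Its low R/FR libraries held 0.705 and 0.459 CPM at 15 min, 0.930 and 0.786 at 45 min, 1.35 and 1.64 at 90 min, and 2.48 and 2.42 at 180 min. The lights did not overlap at 45, 90 and 180 min. The ratio was 2.47-fold at 180 min (log2 1.30 ± 0.25, adjusted p = 5.80e-05) and 1.96-fold at 90 min (0.97 ± 0.29, adjusted p = 0.00802), and at 45 min the value of 0.69 ± 0.35 did not pass (adjusted p = 0.475). The call at 90 min was lost without high R/FR replicate 1 (log2 0.48, adjusted p = 0.232) or low R/FR replicate 2 (0.79, adjusted p = 0.0976), and the value was 1.62 without high R/FR replicate 2.

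The KAT1 response was smaller in hypocotyl than in cotyledon at 45 min (difference of log2 ratios −2.22 ± 0.40, adjusted p = 0.00274, where 0.696% of all genes tested differed) and at 90 min (−1.15 ± 0.33, adjusted p = 0.0103). At 180 min the difference was 0.20 ± 0.28 and did not pass. The difference at 90 min was lost with limma-voom (adjusted p = 0.0559) or without high R/FR replicate 2 of hypocotyl (−0.52, adjusted p = 0.481), and that at 45 min without high R/FR replicate 2 of hypocotyl (adjusted p = 0.317). KAT2 had 3 to 24 counts per hypocotyl library, and its log2 ratios there ran from −0.95 ± 0.49 at 90 min to 0.39 ± 0.60 at 15 min with no call.

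MYB60 showed the converse arrangement, with a response in hypocotyl and none called in cotyledon. The gene lies at chr1:2819065-2820395 on the minus strand. In hypocotyl in high R/FR its libraries held 20.6 and 20.2 CPM at 0 min, 23.1 and 21.8 at 15 min, 17.9 and 19.2 at 45 min, 17.4 and 20.8 at 90 min, and 15.7 and 19.7 at 180 min. In low R/FR they held 21.6 and 20.9 CPM at 15 min, 14.5 and 15.3 at 45 min, 5.34 and 4.92 at 90 min, and 5.49 and 5.78 at 180 min. The low R/FR libraries of 90 and 180 min were the lowest 4 of the 18 and lay far from all others.

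MYB60 fell in hypocotyl by 1.90 ± 0.15 on the log2 scale at 90 min (3.72-fold lower, adjusted p = 1.69e-11) and by 1.66 ± 0.15 at 180 min (3.15-fold lower, adjusted p = 1.03e-10). At 45 min its libraries were also apart, but the value of −0.32 ± 0.13 did not pass (adjusted p = 0.288). The fall deepened between 45 and 90 min, with a change of the log2 ratio of −1.58 ± 0.20 (adjusted p = 5.95e-07). In cotyledon the libraries of both lights ran from 15.2 to 23.8 CPM over all times, and the log2 ratio stayed between −0.24 and 0.20 (SE 0.14). The response differed between the organs at 90 min (−1.66 ± 0.20, adjusted p = 2.17e-07) and at 180 min (−1.56 ± 0.20, adjusted p = 2.47e-07). Of the 4 epidermis markers in hypocotyl, PDF1 rose by 0.91 and PDF2 fell by 0.25 on the log2 scale at 90 min, with ATML1 at 0.06 and FDH at −0.15, which did not pass. At 180 min PDF1, FDH, ATML1 and PDF2 rose by 2.04, 0.64, 0.45 and 0.38. The part of epidermal tissue in the MYB60 result was not tested.

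**Figure D3:**
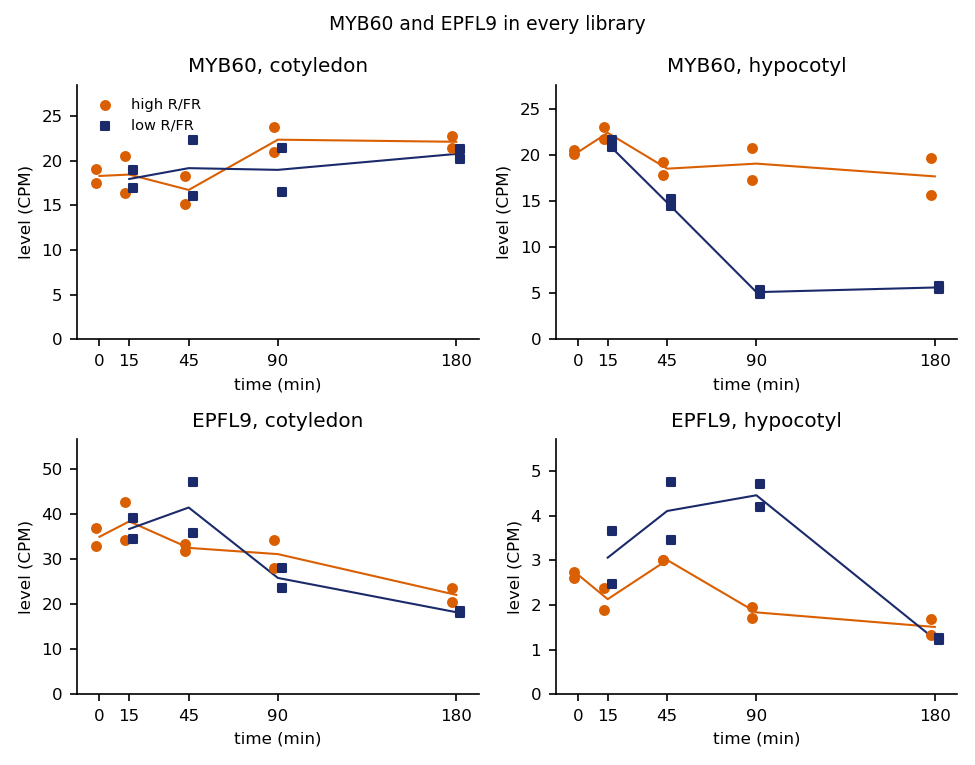
MYB60 and EPFL9 in every library, in CPM on linear axes from 0, by time in min, with high and low R/FR in separate symbols, lines through the group means and a panel for each gene and organ. In hypocotyl the 4 low R/FR libraries of MYB60 at 90 and 180 min lie between 4.92 and 5.78 CPM, and the 2 of EPFL9 at 90 min lie at 4.72 and 4.20 CPM, above the 1.95 and 1.72 CPM of high R/FR.

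Of the receptor and the peptides, EPFL9 was the only gene called in any light comparison. EPFL9, also known as stomagen, lies at chr4:7586143-7586849 on the minus strand. In hypocotyl in high R/FR its libraries held 2.61 and 2.75 CPM at 0 min, 2.38 and 1.88 at 15 min, 3.00 and 3.01 at 45 min, 1.95 and 1.72 at 90 min, and 1.32 and 1.69 at 180 min. Those in low R/FR held 3.66 and 2.46 CPM at 15 min, 4.76 and 3.45 at 45 min, 4.72 and 4.20 at 90 min, and 1.21 and 1.25 at 180 min. Low R/FR was above high R/FR in every library at 15, 45 and 90 min and below it at 180 min.

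EPFL9 rose in hypocotyl by 2.43-fold at 90 min (log2 1.28 ± 0.21, adjusted p = 2.04e-05), while the values at 15 min (0.48 ± 0.23), 45 min (0.45 ± 0.20) and 180 min (−0.30 ± 0.28) did not pass. The response then fell from 90 to 180 min by 1.58 ± 0.36 (adjusted p = 0.000735). A rise of the response from 45 to 90 min (0.83 ± 0.30, adjusted p = 0.0460) was lost in 12 of 14 alternatives. In cotyledon EPFL9 ranged from 18 to 47.2 CPM and its log2 ratios from −0.27 to 0.35 with no call. The organs differed at 90 min (1.55 ± 0.26, adjusted p = 3.57e-05). Mesophyll markers in hypocotyl summed to 13303 to 20162 CPM in high R/FR and to 12108 to 17095 CPM in low R/FR, and their part in the EPFL9 result was not tested.

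TMM, EPF1 and EPF2 gave no call in either organ. TMM in cotyledon had a lowest, median and highest level of 11.9, 15.3 and 20.8 CPM in the 10 high R/FR libraries and of 12.4, 16.2 and 20.4 CPM in the 8 low R/FR libraries, and its log2 ratio ran from −0.24 to 0.12 with an SE of up to 0.18. EPF1 in cotyledon ran from 1.15 to 2.17 CPM in high R/FR and from 1.29 to 2.52 CPM in low R/FR, and EPF2 from 1.0 to 2.42 CPM and from 1.17 to 1.96 CPM. The SE of their cotyledon ratios was 0.26 to 0.34, so a change of the size seen for KAT1 at 15 min was not detectable at this depth. In hypocotyl EPF2 had at most 3 counts in any library and none in 6 of 18, and no ratio is given.

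The 3 lineage transcription factors gave a single call between the lights, for ICE1 in hypocotyl. SPCH in cotyledon held 3.87 and 5.52 CPM at 0 min in high R/FR, 5.21 and 4.58 at 15 min, 4.07 and 5.17 at 45 min, 4.8 and 5.58 at 90 min, and 5.33 and 5.06 at 180 min. The low R/FR libraries held 5.52 and 4.43 CPM at 15 min, 4.11 and 3.49 at 45 min, 3.31 and 4.49 at 90 min, and 2.96 and 3.72 at 180 min. At 90 and 180 min both low R/FR libraries were below both high R/FR libraries. The log2 ratios of SPCH were 0.02, −0.28, −0.42 and −0.64 at 15, 45, 90 and 180 min (SE 0.24 to 0.25), and none passed (adjusted p = 0.0741 at 180 min). At 180 min SPCH passed in 2 alternatives, limma-voom (adjusted p = 0.0393) and the fit of the cotyledon libraries alone (adjusted p = 0.0454).

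FAMA in cotyledon at 180 min held 23.5 and 23.7 CPM in high R/FR and 17.7 and 19.9 CPM in low R/FR, which did not overlap. Its log2 ratio of −0.33 ± 0.13 did not pass (adjusted p = 0.0701), nor did the values of −0.06, 0.17 and −0.23 at the earlier times. ICE1, which is expressed far beyond stomata and is also known from cold responses, had log2 ratios of 0.01 to 0.04 in cotyledon (SE 0.08). In hypocotyl ICE1 fell at 180 min by 0.20 ± 0.08 (1.15-fold lower, adjusted p = 0.0304), a call that was lost when the hypocotyl libraries were fitted alone (adjusted p = 0.0767) or without high R/FR replicate 3 (adjusted p = 0.0678). Without the filter on low counts, all genes in that comparison shifted by a median of −0.10 on the log2 scale and ICE1 by as much, to −0.30, and without high R/FR replicate 2 or low R/FR replicate 1 it stood at −0.38 and −0.36.

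**Figure D4:**
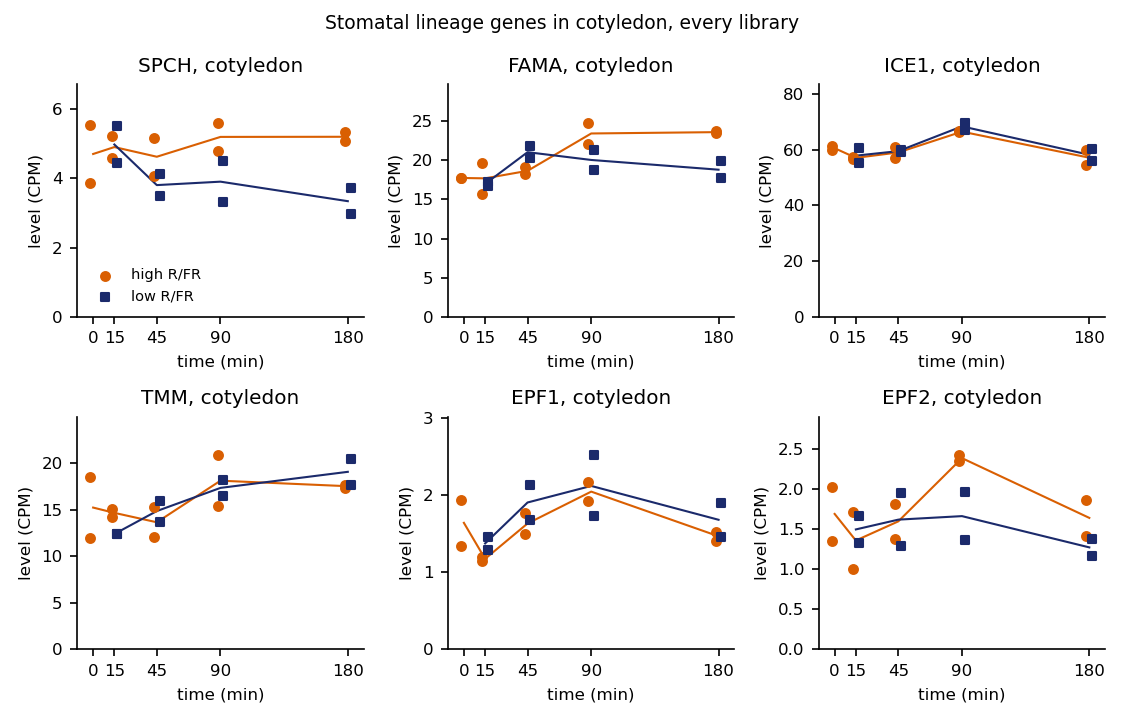
SPCH, FAMA, ICE1, TMM, EPF1 and EPF2 in the 18 cotyledon libraries, in CPM on linear axes from 0, by time in min, with high and low R/FR in separate symbols and lines through the group means. SPCH libraries in low R/FR at 180 min (2.96 and 3.72 CPM) lie below those in high R/FR (5.33 and 5.06 CPM), a difference that did not pass the test.

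In cotyledon 1, 1, 2 and 2 of the 10 passed at 15, 45, 90 and 180 min, where 0.219, 3.62, 10.8 and 19.5% of all genes tested passed in either direction. In hypocotyl 0, 0, 3 and 3 passed, where 0.179, 3.31, 37.6 and 63.8% of all genes did. With so few genes called, the share of the 10 was above that of all genes at 15, 45 and 90 min in cotyledon, through KAT1 alone at 15 and 45 min and KAT1 and KAT2 at 90 min, and near it at 180 min. In hypocotyl it was near that of all genes at 15, 45 and 90 min and below it at 180 min. Most of the 10 genes had few reads in hypocotyl, which limits the calls there. The median log2 ratio of the 10 genes was 0.15 at 45 min and −0.18 at 180 min in cotyledon, against 0.00 and −0.02 over all genes tested, and −0.18 and −0.19 at 90 and 180 min in hypocotyl, against −0.02 and −0.04. Differences between the organs' responses passed for 0, 1, 3 and 1 of the 10 at the 4 times, where 0.0149, 0.696, 21.4 and 46.5% of all genes passed. Changes of the response from 45 to 90 min passed for 1 gene in cotyledon (2.3% of all genes) and 2 in hypocotyl (20.7%). Those from 90 to 180 min passed for 1 gene in each organ, where 5.23% of all genes passed in cotyledon and 43.7% in hypocotyl.

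In high R/FR itself, levels also moved between 0 and 180 min. These comparisons share the high R/FR libraries of 180 min with the light comparisons of that time. In cotyledon 4 of the 10 genes passed, where 55.6% of all genes tested passed and the median of all genes was 0.11. KAT1 (0.64 ± 0.12, adjusted p = 7.89e-05), KAT2 (0.71 ± 0.22, adjusted p = 0.00710) and FAMA (0.41 ± 0.13, adjusted p = 0.00767) rose, and EPFL9 fell by 0.67 ± 0.14 (adjusted p = 0.000294). In hypocotyl 3 passed, where 44.9% of all genes did. FAMA rose by 0.93 ± 0.25 (adjusted p = 0.00271), EPFL9 fell by 0.82 ± 0.25 (adjusted p = 0.00834) and ICE1 fell by 0.20 ± 0.08 (adjusted p = 0.0345). Calls lost without 1 library were KAT2 in cotyledon without replicate 1 of 0 min (adjusted p = 0.0708), FAMA in hypocotyl without replicate 2 of 0 min (0.0648), and EPFL9 in hypocotyl without replicate 2 of 0 min (0.0535) or replicate 3 of 180 min (0.0833). ICE1 in hypocotyl lost its call without replicate 2 of 0 min (−0.12, adjusted p = 0.371) or of 180 min (−0.11, adjusted p = 0.404), without the low-count filter (adjusted p = 0.0782) and with the hypocotyl libraries alone (adjusted p = 0.0632).

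The other genes of the pathway were described from 7 lists by role, 37 genes of which 36 were tested. In cotyledon none passed at 15 min, 2 were higher and none lower at 45 min, and 2 were higher and 3 lower at both 90 and 180 min. In hypocotyl the counts were 0 at 15 min, 2 higher at 45 min, 7 higher and 8 lower at 90 min, and 9 higher and 11 lower at 180 min. The 15 and 20 of 36 genes called at 90 and 180 min in hypocotyl stand against 37.6 and 63.8% of all genes tested, and the 5 of 36 at each of these times in cotyledon against 10.8 and 19.5%. The median log2 ratio of the 36 genes lay between −0.11 and 0.20 in every light comparison.

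KAT1 and KAT2 belong to the Shaker family of potassium channels, and 6 other members were tested. AKT1, the inward channel known from root potassium uptake, rose with KAT1 in cotyledon, by 0.85 ± 0.18 at 45 min, 1.89 ± 0.14 at 90 min and 1.11 ± 0.14 at 180 min, and AKT2, known from phloem, rose by 0.58 ± 0.08 at 45 min. In hypocotyl AKT1 fell by 0.86 ± 0.12 at 90 min, and its response differed between the organs by −1.09 at 45 min, −2.75 at 90 min and −2.02 at 180 min. AKT2 rose there by 0.74 ± 0.08 at 45 min and fell by 0.64 ± 0.08 at 180 min. GORK, the outward channel of guard cells, rose in hypocotyl by 1.59 ± 0.20 at 180 min, and SKOR, an outward channel known from the root stele, fell by 0.96 ± 0.32 at 90 min.

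Of 10 other genes of guard cell function, none passed in cotyledon at 15, 45 or 90 min. Of all genes tested, 0.219, 3.62 and 10.8% passed at these times, and none of 10 is near those shares. The list medians were 0.01, 0.26 and −0.22 at these times. At 180 min, where 19.5% of all genes passed, AT1G22690 alone passed (−0.50 ± 0.15, adjusted p = 0.0168). In hypocotyl 2 were higher and 1 lower at 90 min, and 1 was higher and 4 lower at 180 min. Of all genes, 37.6 and 63.8% passed there in either direction. SLAH3, an anion channel relative of SLAC1, rose by 2.19 ± 0.11 at 90 min and 0.48 ± 0.11 at 180 min. OST1, a kinase of abscisic acid signalling in guard cells, rose by 0.40 ± 0.08 at 90 min and fell by 0.87 ± 0.09 at 180 min.

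Among the other lineage factors, FLP and MYB88, which limit the last division of the lineage, fell in cotyledon at 90 min by 0.47 ± 0.11 and 0.50 ± 0.14, as did SCRM2, and MYB88 fell by 0.41 ± 0.14 at 180 min. SCRM2 rose by 0.34 ± 0.10 in hypocotyl at 180 min. Of 3 polarity genes, BASL fell in hypocotyl by 1.55 ± 0.42 at 90 min and 3.00 ± 0.48 at 180 min, and BRXL2 rose by 0.48 ± 0.14, 0.34 ± 0.13 and 0.82 ± 0.13 at 45, 90 and 180 min. Of 5 other peptides and proteases, the subtilase gene AT1G20160 rose in cotyledon (1.06 ± 0.25 at 90 min) and EPFL5 in hypocotyl (0.88 ± 0.17 at 90 min). Of 8 receptor and MAP kinase genes, 3 were higher and 3 lower at 90 min in hypocotyl and 4 higher and 3 lower at 180 min, where 37.6 and 63.8% of all genes passed in either direction. MKK4 rose there by 1.04 ± 0.12 and 1.28 ± 0.12, YDA rose by 0.49 ± 0.08 at 90 min, and the receptor kinase gene ER fell by 0.75 ± 0.09 at 180 min. In cotyledon ERL1 (0.89 ± 0.29) and MPK3 (−0.54 ± 0.18) passed at 180 min.

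The 10 genes did not move as 1 group. Across the 18 group means of log2 CPM, centred within each organ, Pearson's r between pairs of them ran from −0.55 (FAMA and EPFL9) to 0.72 (FAMA and EPF1), and KAT1 with KAT2 gave 0.06. Points of an organ share the 0 min group and the libraries' scaling, and the values are descriptive. The genes most like KAT1 among 16253 candidates were AT1G01260, a bHLH gene also named JAM2 (r = 0.95), AT3G11490, described as a Rac GTPase activating protein (0.95), and AFP3, an ABI5-binding protein gene (0.93). Those most like MYB60 were NCED4, also known as CCD4, a carotenoid cleavage dioxygenase gene (0.97), the OVATE family gene OFP6 (0.97) and AT1G77280, described as a protein kinase (0.96). For EPFL9 they were AT5G12900 (0.91), the protein kinase gene AT1G67470 (0.90) and AT5G52190 (0.90), for KAT2 AT3G52490, also named SMXL3 (0.90), AT2G44255 (0.81) and APC10 (0.81), and for ICE1 AT3G21400, EXPA20 (0.89 each) and NHX6 (0.88).

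The authors' deposited table of light comparisons gave the same directions for the called genes. In the authors' deposited table KAT1 in cotyledon was at log2 0.60, 2.90, 2.13 and 1.11 with adjusted p of 0.336, 1.51e-06, 7.54e-05 and 0.0300, so its 15 min value did not pass there. The authors' deposited table gave MYB60 in hypocotyl as −1.89 and −1.64 at 90 and 180 min and EPFL9 as 1.28 at 90 min (adjusted p = 2.08e-05), each past 0.05. KAT2 in cotyledon stood in the authors' deposited table at −0.69 and −0.84 at 90 and 180 min, with adjusted p of 0.593 and 0.472. ICE1 in hypocotyl at 180 min stood in the authors' deposited table at −0.20 with adjusted p of 0.0734, which did not pass. Conversely, the authors' deposited table passed EPF1 at 15 min (−1.57, adjusted p = 0.0262), SPCH at 45 min (1.67, adjusted p = 0.0493) and EPF2 at 90 min (adjusted p = 0.0468) in hypocotyl, genes with at most 11 counts in any hypocotyl library that were not called here.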

How the data were processed

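RNA from 36 samples was sequenced after a stranded mRNA protocol, per the labels' protocols. The authors deposited raw read counts for 33602 genes; the submitters' processing notes name the TAIR10 build, HTSeq 0.5.4p3, limma 3.18.2, edgeR 3.4.0, TopHat2 2.0.9, Bowtie and cutadapt 1.2.1, and whether counting used strand is not given in the sources used here. The authors' deposited tables hold log2 fold changes and p-values of low against high R/FR per organ and time, and were used for gene positions and the last paragraph of the report.

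The rest was computed in R 4.3.3, leaving out 5 summary lines. Reads without a feature made up 0.811 to 2.89% and ambiguous reads 0.382 to 0.807%. Genes passed the edgeR 4.0.16 filter (minimum count 10, minimum total 15), which left 20126. CPM used library sizes with TMM factors (0.767 to 0.854 in cotyledon and 1.19 to 1.29 in hypocotyl). The edgeR quasi-likelihood model, robust and with a mean for each of the groups (18 residual degrees of freedom, 36 libraries), gave log2 ratios with SE. Organs were compared in separate fits of the 20 high R/FR libraries (19825 genes) and the low R/FR libraries (19861 genes). Passing, or being called, means an adjusted p (Benjamini-Hochberg) under 0.05 over all genes tested in that comparison. Tests were two-sided. Exon lengths and promoter windows came from the RefSeq annotation of TAIR10.1, whose gene models overlapped the authors' for all 20064 genes compared. No RefSeq gene overlapped any of the 10. No library was a copy of its replicate (chi-square over its degrees of freedom 3.755 to 20.82). The fits were tested on simulated data.

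The 10 genes and all lists were chosen with earlier results of these data known. Named from each list were at most the 2 called genes with the smallest p per comparison, and for each of the 10 called in a light comparison the 3 genes with the highest Pearson correlation. MYB61 is named because of its counts and was the listed guard cell gene with the smallest p between organs. Alternatives were size-factor (RLE) scaling, no filter, DESeq2 1.42.0, limma-voom (limma 3.58.1), the organ's own libraries, a replicate block and leaving out each library.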

Additional observations from a re-analysis of the deposited data

Results flagged for a closer look

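Groups of 2 libraries are too small to test for a single library that stands apart. Differences between the light responses of the organs (hypocotyl minus cotyledon, log2 scale) that passed the edgeR test were found for 3 of the 10 genes. They numbered 0, 1, 3 and 1 at 15, 45, 90 and 180 min. Of all genes tested, 0.0149, 0.696, 21.4 and 46.5% passed at these times, so at 90 min the share of the 10 was near that of all genes and at 180 min below it. KAT1 differed by −2.22 at 45 min and by −1.15 at 90 min, with the larger rise in cotyledon. MYB60 differed by −1.66 at 90 min and by −1.56 at 180 min, with the fall in hypocotyl. EPFL9 differed by 1.55 at 90 min, with the rise in hypocotyl.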

How the results depend on the processing

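Of the 48 calls for the 10 genes over the 20 comparisons, RLE scaling kept 47, no filter on low counts 46, DESeq2 48, limma-voom 46 and the replicate block 46, and the organ's own libraries kept 21 of 24. None of these called values changed sign. Called genes at 180 min in cotyledon numbered 4 with limma-voom, SPCH and FAMA added, against 2. The organ difference at 180 min held 2 called genes, ICE1 added, with RLE scaling, no filter or DESeq2, against 1. The change from 45 to 90 min in hypocotyl held 1 called gene, EPFL9 lost, with RLE scaling, no filter, limma-voom, the organ's own libraries or the replicate block, against 2.

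Every call lost on leaving out 1 library at a time lay in the light, time or organ-difference comparisons. The calls between organs in high or low R/FR were all kept. Called genes then numbered 0 to 1, 1 to 2, 1 and 2 in cotyledon at 15, 45, 90 and 180 min, and 0, 0, 2 to 3 and 2 to 3 in hypocotyl. Organ differences gave 0, 0 to 2, 2 to 3 and 1 to 3. Changes from 45 to 90 and from 90 to 180 min gave 0 to 2 and 1 in cotyledon and 1 to 3 and 1 to 2 in hypocotyl. Comparisons of 180 with 0 min gave 3 to 5 in cotyledon, those in hypocotyl 1 to 4, and the organ comparisons 9 in high and 10 in low R/FR. TMM between 180 and 0 min in cotyledon turned from 0.20, which was not called, to −0.0817 without replicate 1 of 0 min, and to 0.5594 and a call without replicate 2. A lone library was taken to vary like the other groups.

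Leaving genes unfiltered moved the log2 ratios of all genes in hypocotyl at 180 min by a median of −0.10, as did leaving out a library of these groups, and moved the organ difference of that time by −0.13. ICE1 in hypocotyl at 180 min, at −0.20, is of that order. Same-numbered samples of the 2 lights did not deviate together (13 pairs, correlations of −0.17 to 0.07). All 16 pairs of organs had positive values (0.05 to 0.14), and 10 were over 0.1. In a group of 2 libraries the deviations mirror each other, so most values repeat and the pairs are not independent. The main fits paired no samples, neither of lights nor of organs. Under the replicate block 2 calls were lost, MYB60 between organs in low R/FR (−0.82, adjusted p = 0.0702) and EPFL9 above, and 3 were gained. Depth limits EPF1, EPF2, SPCH and KAT2 in hypocotyl.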

Other observations

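FAMA in hypocotyl held 0.999 and 0.709 CPM at 0 min in high R/FR, 0.883 and 1.04 at 15 min, 1.03 and 0.465 at 45 min, 1.24 and 1.26 at 90 min, and 1.55 and 1.69 at 180 min. In low R/FR it held 0.872 and 0.701 CPM at 15 min, 1.01 and 0.954 at 45 min, 0.955 and 1.47 at 90 min, and 1.55 and 1.52 at 180 min. The 4 libraries of 180 min were thus at or above 1.52 CPM in either light. The gene most like FAMA among 16253 candidates was AT1G22690 (Pearson's r of 0.93 over 18 group means, centred within each organ), which was also on the list of guard cell genes and is named here after its value was seen. For SPCH, TMM, EPF1 and EPF2 the highest r was 0.74, 0.84, 0.82 and 0.74.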
